A study of Mus musculus with 2 samples.

Results

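In mouse kidney, 3787 open chromatin sites away from the starts of protein-coding genes held 4 or more DNase I footprints in each of 2 libraries. They were chosen by the measured footprint counts themselves. A replicate 1 peak on 1 of the 19 autosomes had to overlap a replicate 2 peak and to lie more than 1000 bp from every transcript start of a protein-coding gene (GENCODE M21, mm10). It then had to contain at least 4 whole footprints of replicate 1, and the overlapping replicate 2 peak at least 4 of replicate 2. The sites were 8.69% of the 43600 shared autosomal peaks at that distance, a share that the rule itself sets. They were set beside the other 39813 of those peaks, called the other distal peaks here, and beside 5351 shared peaks within 1000 bp of a coding start that met the same count, called promoter peaks.

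The study holds 1 group, with no control, treatment or second genotype: kidney of female mice of the strain B6CASTF1/J, aged 36 days, in 2 biological replicates. Every animal of this strain is a cross of C57BL/6J with CAST/EiJ and carries both genomes, while all coordinates and sequences are those of the C57BL/6J reference and the alleles were not told apart. The labels number the females separately but give both libraries the same donor entry, so the spread between them may be technical. Replicate 1 had 124504 peaks and 375848 footprints over all chromosomes, and replicate 2 had 68056 and 223827. The sources used here give no read totals. The tissue was bulk, so more cells with an open site and more opening in each cell cannot be told apart.

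DNase I cuts DNA that nucleosomes leave free, and a protein bound within such a stretch shields a few bases, which show as a footprint. Enhancers are distal elements at which several transcription factors usually bind side by side, while insulators are known for the factor CTCF. In kidney, distal elements take part in the control of tubule transporters, of vessel genes and of renin, the enzyme that starts the pathway raising blood pressure.

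The sequences of 8 sites are given to show how the footprints lie along the DNA. All are 5′ to 3′ on the plus strand of mm10 (RefSeq GRCm38.p6), in lower case, with capitals where a base was inside a footprint of both libraries. The site in an intron of Nfib, a transcription factor gene, at chr4:82513141-82513440, was among the 4 sites of at most 300 bp with most footprints, as was that in an intron of the endothelial adhesion gene Pecam1, at chr11:106674821-106675060. The sites in introns of Slc13a3, a dicarboxylate carrier gene of the proximal tubule, at chr2:165468181-165468380, and at 65163 bp from the start of the fatty acid oxidation regulator gene Ppara, at chr15:85669641-85669820, held most footprints among sites of that width for their gene lists, in the case of Ppara after a site of Tfap2a with 9 and 9 that is not printed. The other 4 were chosen after their values were seen, as a known kidney enhancer, a clock gene, an imprinted gene and a tandem repeat. They are 300-bp windows of larger peaks, at chr1:133347741-133348040 (upstream of the renin gene Ren1), chr11:98773889-98774188 (intron of the clock repressor gene Nr1d1), chr7:6728604-6728903 (intron of the imprinted gene Peg3) and chr11:88235241-88235540 (between genes, nearest to Mrps23).
Nfib: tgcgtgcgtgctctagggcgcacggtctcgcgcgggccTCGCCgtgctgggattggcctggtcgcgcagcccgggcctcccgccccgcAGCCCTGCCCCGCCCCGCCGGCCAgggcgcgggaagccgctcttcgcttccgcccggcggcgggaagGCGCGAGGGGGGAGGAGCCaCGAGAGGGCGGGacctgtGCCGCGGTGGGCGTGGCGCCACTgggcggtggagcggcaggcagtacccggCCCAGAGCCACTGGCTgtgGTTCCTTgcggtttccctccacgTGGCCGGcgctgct
Pecam1: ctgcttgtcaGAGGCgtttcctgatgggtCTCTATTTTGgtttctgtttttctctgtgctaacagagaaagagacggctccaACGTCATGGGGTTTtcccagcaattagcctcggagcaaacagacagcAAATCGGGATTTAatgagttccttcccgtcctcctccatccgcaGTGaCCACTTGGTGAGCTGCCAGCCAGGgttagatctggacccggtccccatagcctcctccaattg
Slc13a3: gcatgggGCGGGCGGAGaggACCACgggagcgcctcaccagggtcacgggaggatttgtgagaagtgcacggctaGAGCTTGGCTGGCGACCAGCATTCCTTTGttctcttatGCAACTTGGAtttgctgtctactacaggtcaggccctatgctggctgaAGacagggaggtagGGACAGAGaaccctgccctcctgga
Ppara: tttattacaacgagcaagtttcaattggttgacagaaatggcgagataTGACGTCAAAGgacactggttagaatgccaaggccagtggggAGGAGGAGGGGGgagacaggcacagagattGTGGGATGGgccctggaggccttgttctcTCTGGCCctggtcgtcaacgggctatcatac
Ren1: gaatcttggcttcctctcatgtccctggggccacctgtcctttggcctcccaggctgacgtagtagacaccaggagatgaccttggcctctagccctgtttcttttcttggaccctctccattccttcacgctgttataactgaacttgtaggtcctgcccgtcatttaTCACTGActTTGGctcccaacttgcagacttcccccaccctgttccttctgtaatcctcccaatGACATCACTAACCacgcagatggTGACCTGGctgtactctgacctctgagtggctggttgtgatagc
Nr1d1: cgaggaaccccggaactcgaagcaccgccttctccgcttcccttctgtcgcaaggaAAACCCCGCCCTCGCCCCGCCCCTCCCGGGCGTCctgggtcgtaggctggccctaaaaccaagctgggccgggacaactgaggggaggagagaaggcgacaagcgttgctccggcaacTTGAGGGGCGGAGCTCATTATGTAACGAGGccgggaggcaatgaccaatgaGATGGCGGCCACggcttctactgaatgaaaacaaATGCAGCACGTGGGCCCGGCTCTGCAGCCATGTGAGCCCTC
Peg3: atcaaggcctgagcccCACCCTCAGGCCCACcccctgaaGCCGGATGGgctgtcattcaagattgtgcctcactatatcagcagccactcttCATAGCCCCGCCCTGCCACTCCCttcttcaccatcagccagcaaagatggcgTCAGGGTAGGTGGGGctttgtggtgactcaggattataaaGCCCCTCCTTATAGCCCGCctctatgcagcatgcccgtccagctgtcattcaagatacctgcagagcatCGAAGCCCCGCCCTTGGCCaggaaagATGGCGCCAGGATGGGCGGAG
Mrps23: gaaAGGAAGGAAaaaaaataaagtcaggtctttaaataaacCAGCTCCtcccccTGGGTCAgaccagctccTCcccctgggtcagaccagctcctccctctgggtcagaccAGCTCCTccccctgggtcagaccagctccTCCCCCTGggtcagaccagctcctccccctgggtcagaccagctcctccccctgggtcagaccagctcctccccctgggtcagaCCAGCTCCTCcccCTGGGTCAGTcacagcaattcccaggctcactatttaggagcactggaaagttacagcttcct

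The printed sites differed in how much of the DNA was footprinted in both libraries. At Nfib, a GC-rich stretch (77.3% G or C), 113 of 300 bases were in footprints of both libraries, in 8 runs, and the site had 8 footprints in replicate 1 and 8 in replicate 2. Peg3 had 121 of 300 bases so covered, and Nr1d1 had 117. In Pecam1, with 6 and 11 footprints, it was 69 of 240 bases, and in Slc13a3, with 7 and 6, it was 64 of 200. The Ppara sequence had 39 of 180, Mrps23 60 of 300 and Ren1 32 of 300. The renin sequence, with 8 and 6 footprints in its peak, had the smallest share of bases covered in both libraries among the 8, 10.7%. Peg3 had the largest, 40.3%. For Ren1, Nr1d1, Peg3 and Mrps23 the share depends on which 300 bp of the peak are printed. The Ren1 sequence starts before its replicate 2 peak, which begins at chr1:133347881. Nothing is read from the order of these shares.

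Some of the capitals fell on short words known from regulatory DNA, searched here on both strands. In Ppara the cyclic AMP response element (CRE) TGACGTCA was present in 1 copy, wholly inside a footprint in both libraries. The element upstream of Ren1 is a classic kidney enhancer with a CRE-like word, an E-box and repeats of TGACCT, a word for nuclear receptors. Its CRE-like word TGACATCA lay wholly inside a footprint in replicate 1 and was touched by a footprint in replicate 2. Of 3 copies of TGACCT in the whole peak, 1 was inside a footprint in replicate 1 and 2 in replicate 2, while the E-box word CAGATG was touched by a footprint in replicate 1 only. The word TGACCT itself was common, at 24.2% of sites and 22.6% of the other distal peaks in the central 200 bp.

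Nr1d1 encodes a nuclear receptor that represses clock genes and is itself driven through E-boxes by the clock activators. Its peak of 440 bp held 3 copies of the E-box CACGTG, all 3 inside footprints in both libraries, and 5 copies of GGGCGG, the core of SP and KLF sites, all 5 inside footprints in both. CACGTG was found in the central 200 bp of 7.42% of sites and of 5.71% of the other distal peaks, and GGGCGG in 19.01% and 9.17%. The Peg3 intron is known for repeated binding sites of the factor YY1. Its peak held 4 copies of the YY1 core GATGGCG, of which 1 was wholly inside a footprint in replicate 1 and 2 in replicate 2. Footprints covered at least part of 3 of the copies in replicate 1 and of 2 in replicate 2. By contrast, all 4 copies of GGGCGG there were inside footprints in both libraries. GATGGCG was about as frequent in sites (1.51%) as in the other distal peaks (1.59%).

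The number of footprints per site is given as a description, since it chose the sites. Sites had a median of 5 footprints in replicate 1, from 4 to 18, and of 4 in replicate 2, from 4 to 12. In the library with fewer, 2682 sites (70.8%) had exactly 4, 787 had 5, 216 had 6, 57 had 7 and 45 had 8 or more. Just outside the limit were 7791 distal peaks with 3 in the library with fewer. The numbers were equal in the libraries at 1510 sites (39.9%), higher in replicate 1 at 1286 and higher in replicate 2 at 991. At 2949 sites (77.9%) they differed by 1 or less. Of distal shared peaks, 11662 had 4 or more in replicate 1 and 7776 in replicate 2, so the sites were 32.5% of the former and 48.7% of the latter.

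**Figure D1:**
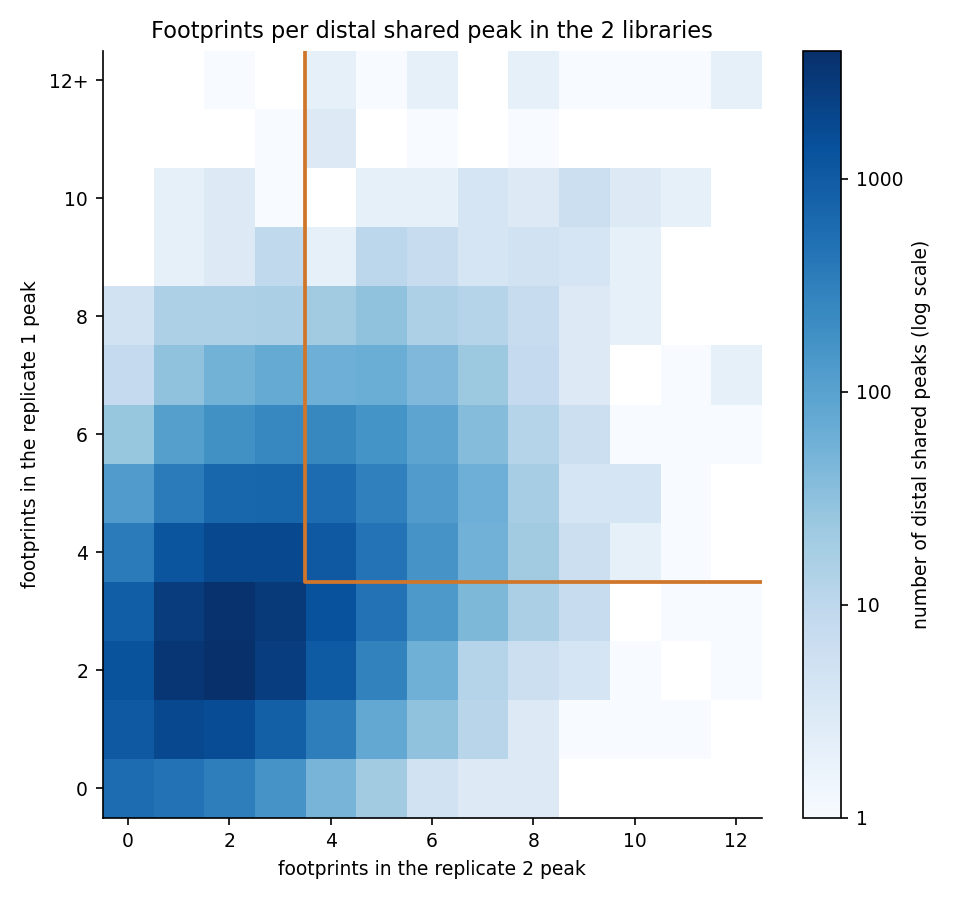
Number of footprints in the replicate 1 peak (vertical axis, the top row holding 12 or more) against that in the overlapping replicate 2 peak (horizontal axis) for the 43600 distal shared peaks, coloured by the number of peaks on a log scale. The 3787 sites lie above and to the right of the orange line, and 1079 of them sit in the square with 4 footprints in each library.

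Peaks with more footprints were wider and higher. Sites had a median width of 240 bp (quartiles 200 and 300 bp), the other distal peaks 183 bp and promoter peaks 220 bp, all in replicate 1. Median heights, the authors' signal values, were 4.08 in replicate 1 and 2.87 in replicate 2 at sites, 2.02 and 1.21 at the other distal peaks, and 9.59 and 6.55 at promoter peaks. Sites thus lay between the other distal peaks and the promoter peaks in height. In replicate 1 they were above both in width. In replicate 2 the median width was 240 bp at sites and at promoter peaks, and 180 bp at the other distal peaks. From 4 footprints in the library with fewer to 8 or more, the median width went from 220 to 460 bp and the median height from 3.83 to 5.96 in replicate 1 and from 2.59 to 4.84 in replicate 2. The peaks just outside, with 3 footprints, had 200 bp, 3.09 and 1.93.

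The share of distal shared peaks that met the rule moved with size in the same way. It was 2.17% of peaks under 200 bp, 9.98% of those of 200 to under 250 bp, 22.3% of those of 250 to under 300 bp and 36.7% of wider ones. By replicate 1 height it was 2.52% up to a height of 2, 8.83% from 2 to 4, 20.8% from 4 to 8 and 35.5% over 8. The number of footprints per 100 bp of peak, which the choice of sites also raises, had medians of 2.00 and 1.83 at sites in replicates 1 and 2, and of 1.25 and 1.11 in the other distal peaks. How much of the footprint number comes from the width and the number of cuts was not tested. Height was lower in replicate 2 at 3446 sites (91.0%) and at 90.7% of the other distal peaks. The median log2 ratio of replicate 2 to replicate 1 height was -0.45 at sites and -0.63 at the others. Heights carry a separate factor in each library, and sites needed 4 or more footprints in replicate 2, so nothing is read from these ratios.

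**Figure D2:**
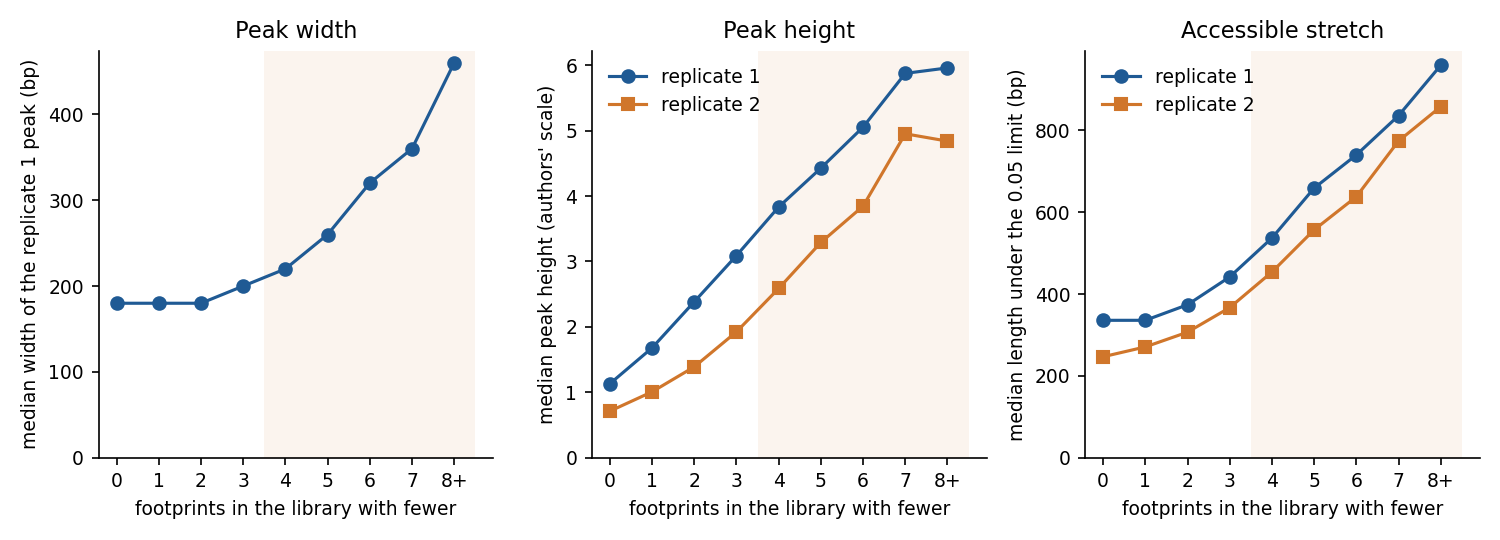
Median width of the replicate 1 peak in bp, median peak height on the authors' scale and median length in bp of the stretch with a false discovery rate below 0.05 around the peak, by the number of footprints in the library with fewer; the shaded classes are the sites. All 3 measures were higher in the class with 8 or more footprints than in the class with 4, in both libraries where both are drawn.

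Sites sat in longer stretches of raised cutting. The deposited false discovery rate files list every interval with a rate below 0.05, and joined intervals around each peak gave a stretch of median length 580 bp in replicate 1 and 490 bp in replicate 2 at sites, against 368 and 296 bp at the other distal peaks. Stretches of 1 kb or more surrounded 420 sites (11.1%) in replicate 1 and 207 (5.47%) in replicate 2, against 2.98% and 1.10%. With peaks sorted into 16 classes of width and height, sites had the longer median stretch in 16 of 16 classes in each library. The other distal peaks' class medians, averaged over the sites' own mix of classes, were 513 bp and 429 bp. The classes narrow the gap in size without closing it: under 200 bp the median width was 180 bp at sites and 160 bp at the others, and from 200 to under 250 bp the replicate 2 height was 2.94 and 1.37. The part of width and height in the longer stretches was not tested further.

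Inside the sites, footprints had medians of 11 bp and 10 bp in width and stood 44 and 41 bp apart, middle to middle, in replicates 1 and 2. They numbered 18622 in the 3787 replicate 1 peaks and 18038 in the 3754 distinct replicate 2 peaks, and covered 27.9% and 23.5% of the bases, against 21.2% and 16.3% in the other distal peaks with a footprint in each library. At the middle of the peak, 43.5% of sites had a footprint in replicate 1 and 40.1% in replicate 2. Coverage dropped to 27.8% and 22.3% at 40 bp before the middle and came back to 31.2% and 26.3% at 70 bp before it, with 31.5% and 25.4% at 70 bp after it. The other distal peaks with a footprint in each library showed no such shoulders. Their coverage was 38.4% and 35.1% at the middle, 21.8% and 13.9% at 40 bp before it and 15.4% and 9.73% at 70 bp before it. Since sites were chosen for holding many footprints, cover away from the middle is part of the choice.

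**Figure D3:**
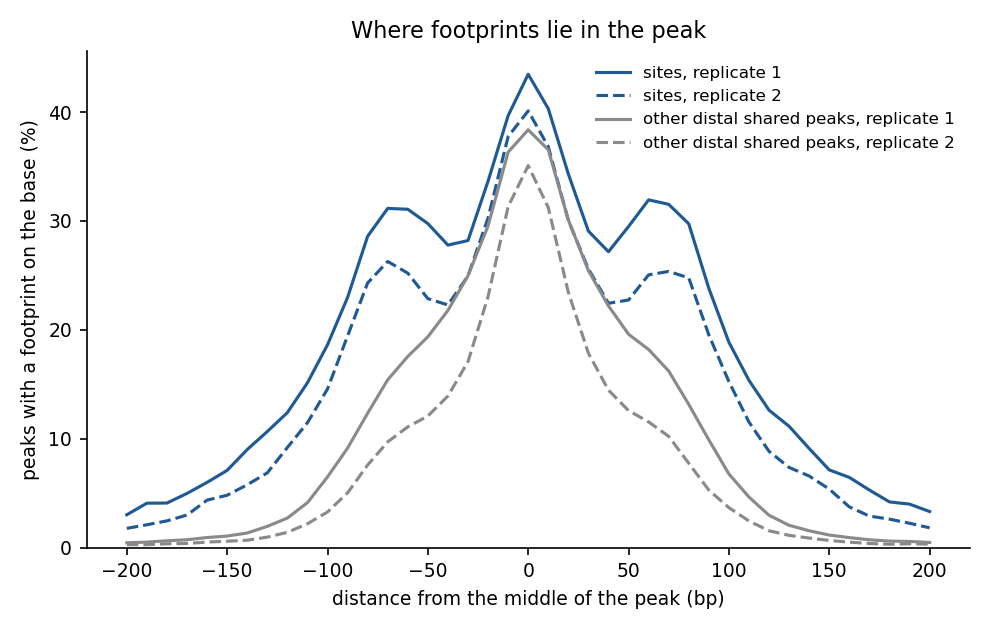
Percent of peaks with a footprint on the base, by distance in bp from the middle of the peak. Sites are blue, and the other distal peaks with a footprint in each library are grey. Replicate 1 is solid and replicate 2 dashed. The sites have a summit of 43.5% and 40.1% at the middle and a shoulder on either side, near 70 bp, that the grey lines lack.

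Part of the sites' footprints were found at the same place in both libraries. A footprint counted as matched when it overlapped a footprint of the other library over at least 50% of the shorter. In sites, 60.4% of replicate 1 footprints and 66.7% of replicate 2 footprints were matched, and with at least 90% of the shorter 45.5% and 49.4%. For scale, footprints of the other library covered 23.1% of the bases of the replicate 1 peaks and 27.4% of those of the replicate 2 peaks. Some matches, more easily of wide footprints, can thus arise by position alone, and their share was not estimated. In the other distal peaks with a footprint in each library, 34408 in replicate 1, the shares were 47.0% and 60.5%; as sites were chosen for footprints in both libraries, they have more that can match, and nothing is read from this difference. Width went with matching: footprints of 20 bp or more, 23.2% of those in sites in replicate 1 and 15.1% in replicate 2, were matched in 94.1% and 97.9%, and narrower ones in 50.2% and 61.1%. A site had a median of 3 matched replicate 1 footprints. At 1176 sites (31.1%) 4 or more were matched, at 435 (11.5%) all of them, and at 54 (1.43%) none. Meeting the count in both libraries thus did not always mean the same footprints.

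Sites were somewhat richer in G and C than the other distal peaks. The median GC content of the central 200 bp was 54.0% against 51.5%, and 66% at promoter peaks. CpG-rich sequence, with at least 55% G or C and an observed to expected CpG ratio of at least 0.6, made up 411 sites (10.9%), 2.98% of the other distal peaks and 76.3% of promoter peaks. At the other distal peaks' rates in each class of width and height, the sites' mix of classes would give 5.44%, below the share seen. No test accompanies this difference. Bases inside footprints were 60.8% and 61.9% G or C in replicates 1 and 2, and bases of the same sites outside them 52.0% and 52.6%. In the other distal peaks with a footprint in each library, the figures were 58.3% and 59.7% inside and 50.5% and 51.3% outside.

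By position, 1832 sites (48.4%) were in introns, 1633 (43.1%) between genes and 322 (8.5%) in exons. The other distal peaks were intronic in 52.5%, intergenic in 40.1% and exonic in 7.39%. The nearest coding start was at a median of 15655 bp from sites and 17686 bp from the other distal peaks, and 841 sites (22.2%) lay over 50000 bp away. Starts of non-coding transcripts had not been part of the rule: 323 sites (8.53%) were within 1000 bp of the start of some annotated gene, against 5.51%. Among the 45 sites with 8 or more footprints in the library with fewer, that share was 17.8%, the median GC content 61.0% and the median distance to a coding start 7362 bp.

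Most sites had no other site nearby, and the median distance to the nearest was 62270 bp. Another site lay within 10000 bp of 712 sites (18.8%), and a site lay within that distance of 12.4% of the other distal peaks. The mean number of distal shared peaks within 10000 bp was 1.75 at sites and 1.26 at the others, with a median of 1 at both. Peaks of the same library can overlap, and 50 sites overlapped another site. By chromosome the share of distal peaks that were sites ran from 6.98% on chromosome 13 to 10.4% on chromosomes 11 and 15.

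Matches to 30 consensus sequences of transcription factors were searched on both strands in the central 200 bp, where a match is a match of letters and not a binding site. CTCF, the insulator factor, had matches at 93 sites (2.46%) and 6.36% of the other distal peaks. This difference moved with width: CTCF was matched at 8.73% of sites against 9.89% of others under 200 bp, 2.73% against 3.17% from 200 to under 250 bp, 0.61% against 0.39% from 250 to under 300 bp and 0.30% against 0.12% at 300 bp or more. Within classes of height sites were lower in each, with 2.17% against 3.87%, 2.90% against 9.08%, 2.10% against 8.52% and 2.54% against 5.89% from the lowest to the highest class. The other distal peaks' rates at the sites' mix of width and height gave 3.31%. In both groups matches were most frequent in narrow peaks, and the part of width in the difference was not tested. The share at sites was 4.68% with a minimum of 3 footprints and 5.58% when replicate 1 alone was used.

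Several words that were more frequent at sites were also common at promoter peaks. GGGGCGGGG, for SP and KLF factors, was found at 128 sites (3.38%), at 1.53% of the other distal peaks and at 22.6% of promoter peaks. The CRE TGACGTCA was found at 36 sites (0.95%) against 0.45%, the NF-Y word AGCCAATC at 65 (1.72%) against 0.93% and the USF word GTCACGTG at 67 (1.77%) against 1.15%, with 3.27%, 5.72% and 4.32% at promoter peaks. At the sites' mix of width and height, the other distal peaks' rates gave 2.17% for SP and KLF, 0.47% for the CRE, 1.19% for NF-Y and 1.25% for USF. Matches to the glucocorticoid response element (GRE) were present at 50 sites (1.32%) against 0.66%, with 1.17% at the sites' mix of classes and 0.11% at promoter peaks, so most of that difference went with width and height.

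The words for HNF1 and HNF4 were not more frequent at sites than at the other distal peaks with the sites' mix of width and height. The word GTTAATNAT for HNF1, a regulator of tubule genes, was found at 94 sites (2.48%) and 1.83% of the other distal peaks, and 2.60% at the sites' mix of classes. CAAAGTCCA, for HNF4, a regulator of proximal tubule metabolism, was found at 48 sites (1.27%) against 1.79% and 2.03%. The RUNX word TGTGGTTT was present at 38 sites (1.00%) against 1.49%. TGANTCA, for AP-1, and TGACNNNGC, for NRF2, which can overlap it, were about as frequent at sites, with 8.77% against 8.92% and 12.1% against 11.5%. The NFI and SRF consensus sequences were searched under those names alone. The other words were, for TEAD, ACATTCC, for ETS, CCGGAAGT, for the GATA factors, AGATAAG, for FOX, TGTTTAC, for ERR, TCAAGGTCA, for further KLF sites, GGGTGTGG, for NRF1, TGCGCATGC, for GRHL, AACCGGTT, and for C/EBP, TTGCGCAA. They were also, for YY1, AAGATGGCG, for RFX, GTTGCCATG, for OCT, ATGCAAAT, for HOX with PBX, TGATTNAT, for STAT, TTCCNNGAA, for TCF and LEF, ATCAAAG, for IRF, GAAANTGAA, and for RBPJ, CGTGGGAA. The most frequent of these at sites was the TEAD word, at 5.33%, against 5.23% of the other distal peaks.

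**Figure D4:**
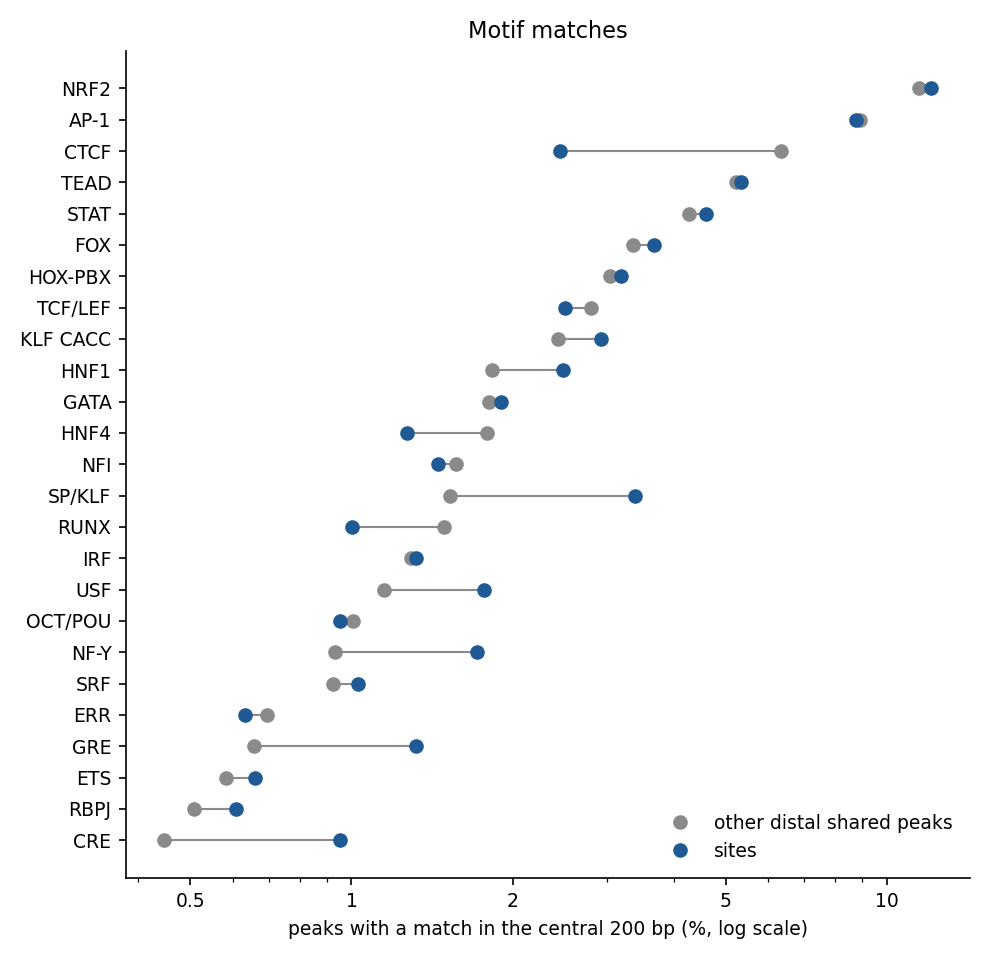
Percent of peaks, on a log scale, with a match in the central 200 bp for each consensus present in at least 0.5% of sites or of the other distal peaks; blue points are sites and grey points the other distal peaks. CTCF stands to the left at sites (2.46% against 6.36%), and SP/KLF, CRE, GRE, NF-Y and USF stand to the right.

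Whether a match was covered by a footprint varied widely with the factor. In replicates 1 and 2, matches lay wholly inside a footprint for NFI in 96.8% and 80.3%, for CTCF in 89.4% and 68.2%, for SP and KLF in 81.6% and 63.0%, and for the CRE in 80.9% and 77.5%. USF had 72.3% and 44.9%, NRF1 65.2% and 56.5%, HNF1 47.4% and 20% (21 of 105), and HNF4 40.3% and 27.4%. For comparison, windows of 9 bases anywhere in these peaks lay inside a footprint in 13.04% in replicate 1 and 9.31% in replicate 2. Matches of FOX (2.65% and 1.06%), GATA (3.30% and 4.76%), RUNX (4.55% and 4.92%), TEAD (6.61% and 4.10%) and AP-1 (13.1% and 8.67%) were below the share of all windows of their own length in both libraries, which for 7 bases was 16.5% and 12.5% and for 8 bases 14.6% and 10.7%. In the other distal peaks with a footprint in each library, CTCF was highest of these in replicate 1, at 96.8% and 62.7%. There NFI had 89.2% and 66.1%, the CRE 70.9% and 41.8%, SP and KLF 68.7% and 42.9%, and FOX 2.56% and 0.908%. The sites' matches were few for some factors, with 62 for NFI, 47 for the CRE and 23 for NRF1 in replicate 1, and the sources used here do not name the footprint caller.

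The sites with most footprints were spread over genes of unrelated roles. That in an intron of Sufu, a repressor of Hedgehog signalling, at chr19:46406601-46407300, had 16 footprints in replicate 1 and 12 in replicate 2, of which 8 matched, with heights of 6.20 and 5.86. Next was a site with 18 and 8 footprints at chr19:5845401-5846060, whose nearest coding gene is Frmd8 but which covers the start of Neat1, a non-coding RNA that builds nuclear paraspeckles. A further replicate 1 peak with 12 and 8 footprints overlaps it there and shares its replicate 2 peak, so the 10 sites with most footprints are 9 places. The site in an intron of Clec11a, a growth factor gene, had 13 and 11 footprints, of which 12 of the 13 matched, and heights of 17.5 and 17.2.

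The Peg3 site, at chr7:6728301-6728920, had 12 footprints in each library, of which 11 of replicate 1 matched, and heights of 8.06 and 8.14. It lay 1499 bp from the nearest coding start. Spred2, an inhibitor of growth factor signalling, was nearest to a site with 12 and 10 footprints, of which only 4 matched. Sites with 10 and 11 footprints lay nearest to Npr1, the receptor of atrial natriuretic peptide, and in an intron of Acsl1, a fatty acid activating enzyme gene, with 6 matched at each. The site in an intron of Tfap2a, a transcription factor gene, had 12 and 9 (7 matched), and it covers the start of the annotated gene Gm47061. The site in an intron of Nfic, a transcription factor gene of the NFI family, had 10 and 10 (9 matched). So among the 10, the share of replicate 1 footprints found again in replicate 2 ran from 4 of 12 at Spred2 to 12 of 13 at Clec11a.

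**Figure D5:**
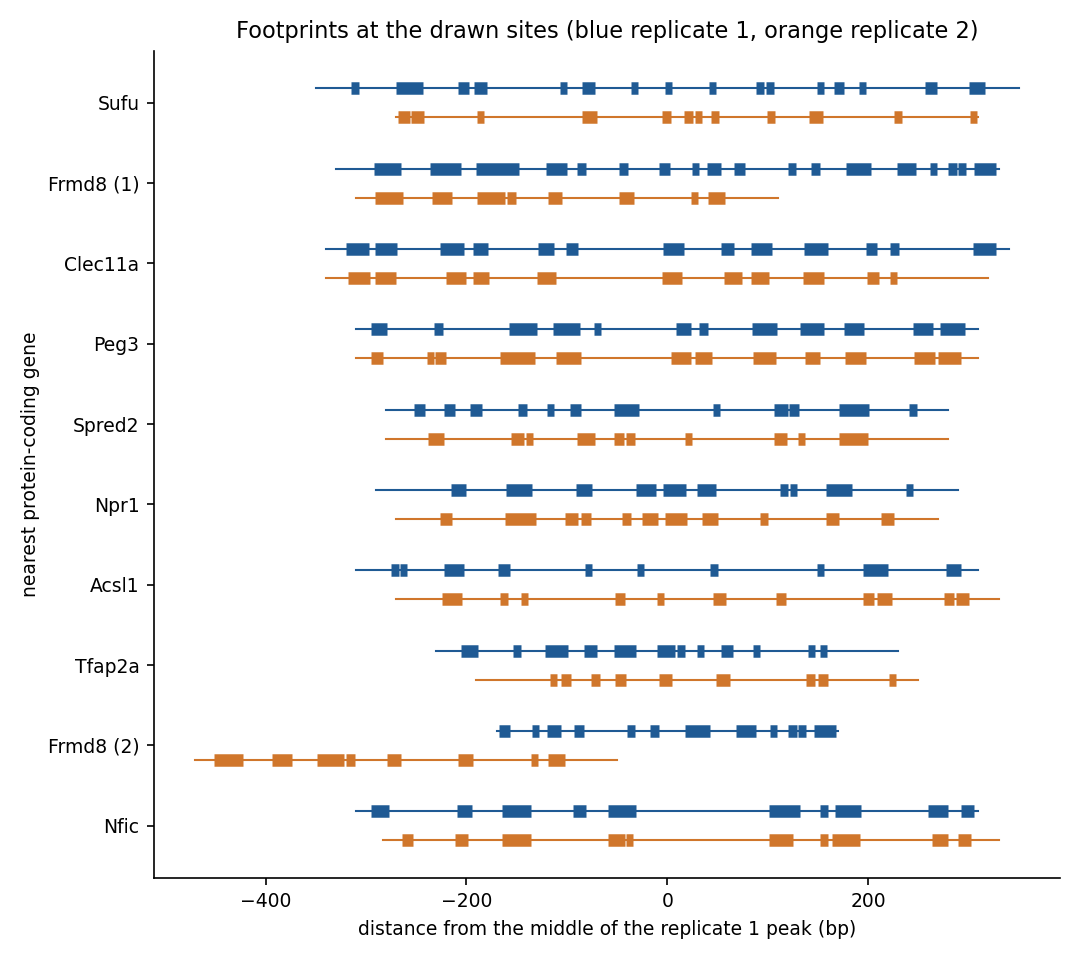
Footprints (thick bars) and peaks (thin lines) at the 10 sites with most footprints, by distance in bp from the middle of the replicate 1 peak, with replicate 1 in blue and replicate 2 in orange; rows are named by the nearest protein-coding gene. The 12 and 12 bars of Peg3 line up between the libraries, while those of Spred2 mostly do not; the Frmd8 rows share a replicate 2 peak.

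The highest sites, by mean rank of height over the libraries, had fewer footprints than the sites picked for having most. All of those named here had at least 5 in replicate 1, the median of all sites. In replicate 2 the median of all sites, 4, is the minimum of the rule, so no site could be below it. The Nr1d1 site had heights of 35.8 and 31.7 in replicates 1 and 2, with 8 and 5 footprints. Sites nearest to Cct8l1 (33.3 and 25.7), Chd2 (25.4 and 28.3), Trappc9 (26.4 and 25.2) and Dync1h1 (26.9 and 24.5) had from 4 to 6 footprints in each library. The Cct8l1 and Chd2 sites were 113 and 86 bp from the start of a non-coding gene. No site was both among these and among those with most footprints. Sets this small among 3787 sites would rarely share a member even if the measures were unrelated, so nothing is read from this. Over all sites, median heights were 3.83 and 2.59 in replicates 1 and 2 with 4 footprints in the library with fewer. They were 5.96 and 4.84 with 8 or more.

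Genes are assigned by the nearest coding start, which need not be the gene that a site acts on. On the autosomes 2687 of 20780 protein-coding genes (12.9%) were nearest to at least 1 site, which is 24.1% of the 11171 genes nearest to any distal shared peak. Of them, 1996 had 1 site, 452 had 2 and the rest more. Tns1, which links integrins to the cytoskeleton, had most, 10 of its 56 distal shared peaks. It was followed by 1700001O22Rik with 9 of 23, Gadd45g, a stress response gene, with 8 of 31, and Zfp36l1, which speeds the decay of messenger RNAs, with 8 of 31. Ahdc1 had 7 of 14, Smad7, an inhibitor of TGF-beta signalling, 7 of 25, Gse1 7 of 43, Zmiz1 7 of 55, Nfic 6 of 11 and the kinase gene Pim3 6 of 13. Footprint numbers at the Tns1 sites ran from 4 to 10 in replicate 1 and from 4 to 7 in replicate 2.

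Genes with many distal peaks have more chances of a site, so the lists of marker genes are given with their peaks. Of 15 proximal tubule genes, which serve the uptake of solutes from the filtrate, 6 had a site, and 14 of their 74 distal peaks (18.9%) were sites, beside 8.69% of all distal peaks. They were Pck1, an enzyme of gluconeogenesis, Slc13a3, the urate carrier gene Slc22a12, the endocytic receptor gene Lrp2, the water channel gene Aqp1 and Hnf4a. The 4 sites nearest to Pck1 had 8 and 6, 5 and 4, 5 and 5, and 4 and 4 footprints in replicates 1 and 2, with heights from 5.36 to 9.41 and from 3.40 to 6.66. Slc13a3 had 3 sites, of which the printed one had heights of 7.33 and 5.39. In the distal nephron, 3 of 8 thick ascending limb genes (Kcnj1, Cldn10 and Egf) had a site, with 3 of 24 distal peaks (12.5%). For the distal convoluted and connecting tubule, the counts were 2 of 9 genes (Klhl3 and Slc12a3) and 2 of 23 peaks (8.70%). They were 1 of 8 genes (Tfcp2l1) and 3 of 30 peaks in principal cells, and 0 of 8 genes and 0 of 28 peaks in intercalated cells. Apart from the thick ascending limb these shares were near or under that of all distal peaks. The Kcnj1 site, nearest to the potassium channel gene of the thick ascending limb, had 11 footprints in replicate 1 and 6 in replicate 2. Slc12a3, the thiazide-sensitive salt carrier gene, had an intronic site of heights 10.5 and 8.30 with 5 and 4 footprints.

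Endothelial genes had sites in 8 of 11 cases, beside 12.9% of all coding genes and 24.1% of those nearest to any distal shared peak. Of their 100 distal peaks 16 (16.0%) were sites, beside 8.69% of all distal peaks. The 8 genes were the growth factor receptor genes Kdr, Flt1 and Tek, the adhesion genes Pecam1 and Cdh5, the TGF-beta co-receptor gene Eng, Egfl7 and Ehd3. Of the 3 sites nearest to Eng, the one with most footprints had 7 in replicate 1 and 11 in replicate 2, of which 6 matched. Of the 4 nearest to Kdr, 1 had 6 and 6, with 4 matched. Podocyte genes had sites in 3 of 9 cases (Podxl and Plce1 among them), with 4 of 49 peaks (8.16%), a share near that of all distal peaks. Stromal and mural genes had them in 2 of 8 (Ren1 and Pdgfrb), with 2 of 13 peaks (15.4%), and immune genes in 1 of 6 (Csf1r, the macrophage growth factor receptor gene), with 1 of 19 peaks (5.26%). The Ren1 site had heights of 3.19 and 2.16 and lay 2410 bp from the start of the gene. Genes of cells that kidney should lack were not all without a site. Alb of hepatocytes and Snap25 of neurons were nearest to 1 and 2 sites, each 1 of 6 in its list. The lists had 1 of 13 peaks (7.69%) and 2 of 29 (6.90%) as sites, both under the share of all distal peaks. Of the 2 Snap25 sites, 1 lay 33313 bp from the nearest coding start and covered the start of the annotated gene Gm36967. Of 6 striated muscle genes 0 had a site, with 1 distal peak in all.

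Transcription factor genes of the kidney had sites in 20 of 33 cases, and 44 of their 353 distal peaks (12.5%) were sites. Ppara had 5 sites, and Irx3 and Maf had 4 each. The Ppara sites had 4 or 5 footprints in replicate 1 and from 4 to 9 in replicate 2. Of 22 transcription factor genes of other organs, 13 were nearest to a distal shared peak, and 0 of their 23 peaks were sites, beside 8.69% of all distal peaks. Housekeeping genes had sites in 5 of 18 cases (6 of 44 peaks, 13.6%) and genes of the circadian clock and its outputs in 7 of 14 (12 of 101 peaks, 11.9%). The clock genes were Tef, Rora, Per2, Nr1d1, Arntl, Hlf and Per1. Lists of few genes allow no firm order among these shares, and none was tested.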

How the data were processed

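DNase-seq was deposited for 2 kidney libraries. Per the deposited descriptions, the authors worked on mm10 alignments after filtering and did not pool the libraries; the sources used here name neither the aligner nor the peak and footprint callers. Peak heights are the authors' signal values, scaled by 1 factor per library on a scale that is not stated. Footprint files deposited by the authors hold the p-value 0.01 in every row, taken as their threshold, and the deposited false discovery rate (q-value) files hold values below 0.05. Of each library's 2 deposited peak sets the one with fewer peaks was used.

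Peaks were shared when they overlapped by 1 base. The replicate 2 partner with most footprints was taken, and footprints wholly inside a peak were counted. Peaks were placed by their middle. Genes came from GENCODE M21 and sequence from RefSeq GRCm38.p6. Sites named were the 10 with most footprints, the 5 highest and those of up to 2 genes for each of 16 lists with 191 entries. Genes named were the 10 with most sites; further members and 4 of the printed sequences were picked with their values in view. Some genes that this rule takes are not reported here. The sites and the lists were chosen with earlier results of these data known. With 1 group of 2 libraries, and sites not being replicates, no test was made, and all comparisons are descriptions. Classes of width were bounded at 200, 250 and 300 bp, and those of replicate 1 height up to 2, 4, 8 and over. Python 3.11.15, numpy 2.4.6 and pandas 2.3.3 were used, with the interval, distance and motif steps checked on simulated data. The alternatives were other footprint minimums, counting, overlap and start-site rules, peak sets, motif windows, the X chromosome added and each replicate left out.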

Additional observations from a re-analysis of the deposited data

How the results depend on the processing

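The number of sites (3787) followed the footprint minimum: 11578 at 3, 1105 at 5 and 318 at 6. Using a single library gave from 7692 to 14762 sites; under the other alternatives the number stayed within 1.5 times. Median footprints were 4, 6 and 7 in replicate 1 at minimums of 3, 5 and 6, and 4 without replicate 2; in replicate 2 they were 5 and 7 at minimums of 5 and 6, and 5 in the stronger 50% of peaks. Matched footprints were 66.3% and 73.5% at 1 base and 45.5% and 49.4% at 90% of the shorter. The share in introns was 52.1% with the 5′ ends of coding genes only, 50.2% with sites also over 1 kb from RefSeq transcript starts, an alternative chosen after seeing the data, and from 49.6% to 51.3% with a replicate left out.

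The share of coding genes with a site was 28.1%, 4.51% and 1.41% at minimums of 3, 5 and 6. It was 13.9% with footprint middles, 14.7% with footprints overlapping by 1 base, 13.6% with replicate 2 footprints counted in the replicate 1 peak, 13.9% and 11.4% at 500 and 2500 bp, 12.04% with starts of all genes, 15.5% with 5′ ends only, 13.6% in the wider peak set, 11.02% in the stronger peaks, 11.8% by gene body and 10 kb, 11.7% with RefSeq starts, and from 21.6% to 33.7% with a replicate left out. CTCF matches were at 4.68%, 1.54% and 1.26% of sites at minimums of 3, 5 and 6, at 3.01% with 1-base overlap of footprints, and at 3.37% to 5.58% with a replicate left out. HNF4 matches were at 1.77%, 0.81% and 0% at those minimums, 1.77% in the whole peak and 0.95% in the central 150 bp; the 0 is over 318 sites. HNF1 matches were at 1.89% at a minimum of 6, and AP-1 matches at 11.04% in the whole peak and 7.16% in 150 bp.

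The cause of these moves was not tested, apart from those that the minimum or the window sets by construction. No paired analysis was possible because there was 1 group. The 2 libraries limit the precision: any value can be given only with its range over replicates 1 and 2. Footprints carry no score, and weaker protection cannot be ranked. Peaks with 4 or more footprints in replicate 1 and none in replicate 2 numbered 516, and the reverse 81, so detection differed between the libraries. The nearest gene is a convention. Read totals were not used here.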

Other observations

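Some sites lay in tandem repeats. They were called where the central 200 bp was at least 60% identical to itself when shifted by 2 to 100 bases. This held for 19 sites (0.502%), against 66 other distal peaks (0.166%). The site nearest to Mrps23, printed in the report, had a period of 23 bp with 93.8% self-identity, and 12 footprints in replicate 1 and 6 in replicate 2, of which 6 matched. Sites nearest to Uvrag (period 70 bp, 95.4%) and Srbd1 (52 bp, 92.6%) were of like regularity, with 4 and 5, and 6 and 6 footprints. In the site in an intron of Ctif, with 6 and 5 footprints and a period of 58 bp, none of the footprints matched between the libraries. How reads were assigned to repeated sequence is not given in the sources used here, and its part in these footprints was not tested.

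On the X chromosome, which the rule leaves out, 62 of 691 distal shared peaks (8.97%) met the same counts, with median heights of 4.39 and 3.52. The one with most footprints, nearest to Rab39b, a gene of vesicle traffic, had 12 and 9 footprints in replicates 1 and 2 and heights of 10.3 and 12.4. Replicate 1 also had 3100 peaks over 1 kb from coding starts with 4 or more footprints that overlapped no replicate 2 peak.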
